A study of Mus musculus with 24 samples.

Results

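The comparison described here set cells of HY19636 lacking Phgdh (KO) against wild-type (WT) cells of the same line, both grown alone in medium without serine and glycine, and took its members from 6 of the 24 libraries of the series by their labels. All 12061 genes with an FPKM (reads per kilobase of gene, divided by the depth of the library) of at least 1 in at least 3 of the 24 libraries were kept, of 54532 genes in the deposited table. HY19636 is an established line of mouse pancreatic ductal adenocarcinoma (PDAC). The groups were 3 libraries of Phgdh KO cells in serine- and glycine-free monoculture and 3 libraries of WT cells under the same conditions. The other libraries of the series came from the same genotypes in medium with serine and glycine, in coculture with hepatocytes, or both, again 3 per group. The title of the series concerns serine that hepatocytes supply to pancreatic cancer cells in liver metastasis. Which part of Phgdh was edited, whether the KO cells are 1 clone or a pool, and the time without serine and glycine are not stated by the labels. The replicates are numbered but not described as separate cultures, so the p-values rest on a spread that may be purely technical.

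Phgdh encodes the enzyme that draws 3-phosphoglycerate out of glycolysis into serine synthesis, and Psat1 and Psph catalyse the following steps. Serine is turned into glycine and one-carbon units on folate, which feed thymidylate, purine and methionine synthesis, and it is a building block of sphingolipids, phosphatidylserine and, through transsulfuration, cysteine. A cell without Phgdh activity must take up serine, so medium without serine and glycine removes its main outside source. Cells short of amino acids are known to raise the transcription factor ATF4 and its targets, and the growth-promoting kinase complex mTORC1 is known to sense amino acids and to control, among others, sterol synthesis and ribosome production.

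The 6 libraries held 15740081 to 19044371 reads in genes (15740081 to 23479425 over all 24). KO replicate 1 stood apart, since its counts had a chi-square of 14.08 to 18.18 per degree of freedom against the other KO libraries, which had 3.21 between them, while WT pairs had 3.41 to 5.25. Replicate 1 of the KO monocultures with serine and glycine stood further apart (53.04 and 65.72). With both left out, 4553 genes were higher and 4404 lower in KO, close to the main counts given below. The 100 most counted genes took 17.7 to 17.8% of the reads in KO libraries and 22.3 to 22.9% in WT libraries. Of 10 ductal epithelial markers, 7 were above 1 FPKM in all 6 libraries, Muc1 was above it in all WT libraries but in only 1 KO library, and Epcam and Cldn4 were near 0. The sum of the 10 was 4404 to 4605 FPKM in KO and 1207 to 1276 FPKM in WT libraries. All 14 hepatocyte markers, all 10 acinar and islet markers, and all 9 endothelial markers were under 1 FPKM in both genotypes, with sums up to 0.342, 0.833 and 0.517 FPKM in KO and up to 0.669, 1.03 and 1.53 FPKM in WT libraries. Of 11 fibroblast and stellate markers, all in KO and 10 in WT were under 1 FPKM. The 13 macrophage markers summed to 2.14 to 3.69 FPKM in KO and 26.5 to 29.2 FPKM in WT libraries through Cd14 and Cd68, with Adgre1, Lyz2 and the C1q genes at 0 in all 6 libraries. The part of these shifts in the results below was not tested. In RNA from whole cultures, fewer cells of a type and less RNA per cell cannot be told apart.

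Phgdh transcript was abundant in both genotypes. The gene (ENSMUSG00000053398, GRCm38 chromosome 3, 98313170 to 98339990, minus strand) was at 616, 732 and 737 FPKM in KO libraries and 789, 818 and 794 FPKM in WT libraries, so the groups did not overlap, but the gap between them was smaller than that between KO replicate 1 and the other KO libraries. Its log2 change was -0.21 ± 0.12 (adjusted p = 0.115), so no difference was called. Quantile normalization turned it to 0.19, while it was called lower when the 6 libraries were fitted alone (-0.21, adjusted p = 0.0492) and by limma voom on recovered reads (-0.29, adjusted p = 0.0255). In the other 3 conditions KO was lower without overlap, with means of 483 ± 96.6 FPKM in KO against 922 ± 16.6 FPKM (SD, n = 3 each) in WT monocultures with serine and glycine, and 716 ± 106 FPKM in KO against 1311 ± 83.02 FPKM in WT serine- and glycine-free cocultures. Because the edited part is not known, a gene-level count does not check the genotype labels.

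Most of the transcriptome differed between the genotypes. A gene was called at an adjusted p under 0.05 (limma over all tested genes), and 8880 genes were called (73.6%), 4506 higher in KO (37.4%) and 4374 lower (36.3%). At least a 2-fold difference on the log2(FPKM + 1) scale was reached by 1344 genes higher (11.1%) and 1492 lower (12.4%). The KO and WT libraries did not overlap at 9483 genes (78.6%), with KO above at 39.8% and KO below at 38.8% of all tested genes. The median log2 change over all tested genes was 0.00, and the median size of the change was 0.56. With so many genes called, the count of called members of a gene list is read below against these shares. List counts cover the members that passed the filter, and changes are given with their standard errors on the log2(FPKM + 1) scale. Those 2-fold counts depended on the scale, with 2254 genes lower at a pseudocount of 0.1 and 2492 lower in a test on reads recovered from the FPKM values (limma voom).

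Among the largest rises were 3 ligands of the EGF receptor family. Areg, encoding amphiregulin, was at 857, 728 and 746 FPKM in KO libraries, against 25.9, 28.999 and 27.7 FPKM in WT libraries, a log2 change of 4.77 ± 0.16 (adjusted p = 1.18e-15). Ereg, encoding epiregulin, was at 172, 145 and 152 FPKM in KO and 3.14, 2.81 and 3.43 FPKM in WT libraries (5.25 ± 0.13, adjusted p = 1.45e-17). Btc, encoding betacellulin, was at 43.5, 34.5 and 35.1 FPKM in KO and 1.41, 1.26 and 1.43 FPKM in WT libraries (4.02 ± 0.12, adjusted p = 3.65e-16). All KO libraries lay far above all WT libraries at each of the 3 ligands, and KO replicate 1 was the highest of the KO libraries each time.

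The clock repressor Nr1d1 and the nucleotide enzyme Rrm2 rose as far. Nr1d1, which encodes the heme-binding nuclear receptor REV-ERB alpha, was at 123, 152 and 144 FPKM in KO and 2.37, 3.52 and 3.5003 FPKM in WT libraries (5.097 ± 0.10, adjusted p = 1.10e-18). Rrm2, the small subunit of ribonucleotide reductase, was at 56.9, 50.4 and 48.3 FPKM in KO and 2.59, 1.81 and 1.72 FPKM in WT libraries (4.13 ± 0.12, adjusted p = 2.63e-16). Neither gene overlapped between genotypes, which the choice of genes required. Dynap, which encodes a dynactin-associated protein, rose furthest of all tested genes on the log2(FPKM + 1) scale. It was at 160.2, 146 and 145 FPKM in KO and 1.27, 1.61 and 1.25 FPKM in WT libraries (5.99 ± 0.10, adjusted p = 8.04e-20). The collagenase gene Mmp13 was at 173, 146 and 146 FPKM in KO and 7.24, 7.49 and 8.37 FPKM in WT libraries (4.16 ± 0.12). The remaining rises of this rank were Fam84a (4.84 ± 0.08), the pro-apoptotic gene Pawr (4.34 ± 0.16), the membrane raft gene Mall (4.19 ± 0.12), the cadherin gene Cdh17 (4.18 ± 0.08) and the zinc finger transcription factor gene Plagl1 (3.92 ± 0.11), all with an adjusted p of at most 6.44e-15.

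**Figure D1:**
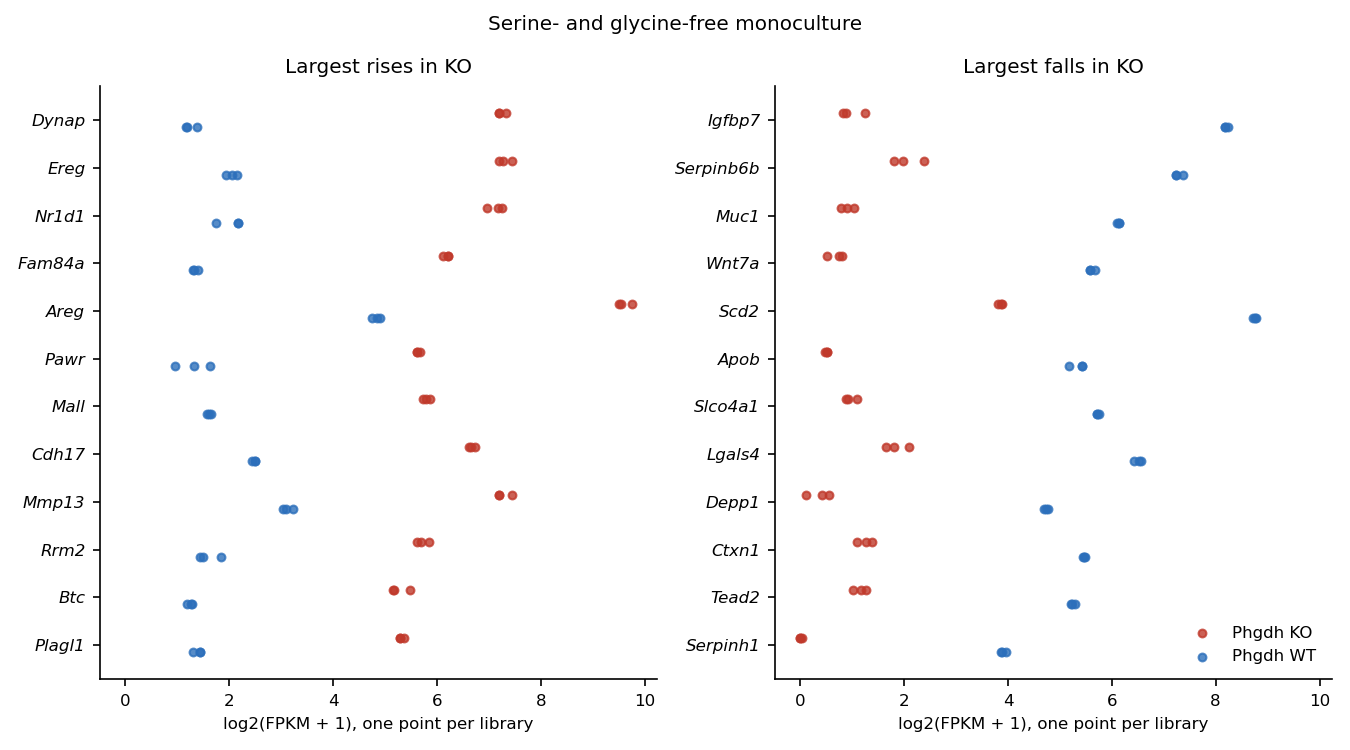
Level of the 12 genes with the largest rises and the 12 with the largest falls in Phgdh KO relative to WT cells in serine- and glycine-free monoculture, as log2(FPKM + 1), with one point per library (red KO, blue WT, 3 each). At all 24 genes the KO and WT points form separate clusters, which the choice of genes required, and the distance between them is many times the spread within each.

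Igfbp7, encoding a secreted binding protein of insulin-like growth factors, was at 0.847, 1.37 and 0.778 FPKM in KO and 290.5, 299 and 289 FPKM in WT libraries (-7.21 ± 0.11, adjusted p = 1.90e-20). On the log2(FPKM + 1) scale this was the largest change of any tested gene in either direction. The transmembrane mucin gene Muc1 was at 0.873, 0.731 and 1.04 FPKM in KO and 69.8, 67.6 and 69.5 FPKM in WT libraries (-5.22 ± 0.06, adjusted p = 3.83e-22). Wnt7a, a secreted Wnt ligand, was at 0.753, 0.671 and 0.435 FPKM in KO and 46.6, 46.7 and 50.4 FPKM in WT libraries (-4.92 ± 0.07, adjusted p = 1.38e-20). At these 3 genes every KO library was below 1.5 FPKM and every WT library above 46 FPKM.

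Scd2, a stearoyl-CoA desaturase that makes monounsaturated fatty acids, was at 12.9, 13.7 and 13.8 FPKM in KO and 429.9, 419 and 436 FPKM in WT libraries (-4.89 ± 0.07, adjusted p = 5.26e-21). Apob, the structural protein of lipoproteins, was at 0.437, 0.436 and 0.396 FPKM in KO and 41.8, 35.2 and 41.9 FPKM in WT libraries (-4.83 ± 0.09). Serpinh1, which encodes the collagen chaperone HSP47, was at 0, 0.0213 and 0 FPKM in KO and 13.5, 14.5 and 13.7 FPKM in WT libraries (-3.89 ± 0.05). It was thus at or near 0 in every KO library, where the added 1 limits the size of the change. Over the alternative fits described below its log2 change lay between -9.75 and -3.86, and that of Igfbp7 between -8.26 and -7.13. The other falls of this rank were Serpinb6b (-5.22 ± 0.12, a serpin with close copies nearby that could share reads), the organic anion transporter gene Slco4a1 (-4.76 ± 0.08), the galectin gene Lgals4 (-4.66 ± 0.14), Depp1 (-4.37 ± 0.17), Ctxn1 (-4.22 ± 0.09) and Tead2 (-4.095 ± 0.12), a DNA-binding partner of the coactivator YAP.

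The enzymes that make and use serine moved in different directions. Of 5 serine synthesis and hydroxymethyltransferase genes, 3 were higher in KO, 1 was lower and Phgdh was not called, with a median log2 change of 0.44. Psat1 was at 173, 168 and 169.8 FPKM in KO and 95.3, 102 and 95.5 FPKM in WT libraries (0.79 ± 0.05, adjusted p = 7.73e-11), and Psph changed by 0.44 ± 0.06. The cytosolic enzyme Shmt1, which exchanges serine and glycine, was at 11.1, 11.4 and 11.9 FPKM in KO and 3.92, 4.47 and 3.896 FPKM in WT libraries (1.29 ± 0.08, adjusted p = 8.91e-12). Its mitochondrial counterpart Shmt2 moved the other way, at 42.6, 48.6 and 48.01 FPKM in KO and 124, 127 and 119 FPKM in WT libraries (-1.39 ± 0.08, adjusted p = 2.53e-12). Neither enzyme overlapped between genotypes, as was so at 78.6% of all tested genes.

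Of 13 tested folate genes, 6 rose and 5 fell, beside 37.4% higher and 36.3% lower of all tested genes. The rises included Tyms, the thymidylate synthase (1.297 ± 0.08), and Mthfd1 (0.94 ± 0.06), and the falls Mtfmt (-1.05 ± 0.11). Among 11 tested genes of glycine cleavage, transsulfuration and the methionine cycle, 7 rose and 4 fell, with the methionine synthase gene Mtr at 1.34 ± 0.07 and the cystathionine lyase gene Cth at -0.40 ± 0.05. The purine synthesis genes, 15 in all, split into 7 higher and 5 lower, or 5 and 6 under quantile normalization. Adsl, which also completes AMP, was at 31.97, 36.2 and 35.8 FPKM in KO and 8.13, 8.06 and 8.38 FPKM in WT libraries (1.95 ± 0.08). Paics, which catalyses the steps just before Adsl, moved the other way, at 57.01, 53.1 and 51.7 FPKM in KO and 146, 145 and 144 FPKM in WT libraries (-1.41 ± 0.07). Of 22 sphingolipid and phosphatidylserine genes, 10 rose and 9 fell, a balanced split close to that of all tested genes, with Sptlc1 of serine palmitoyltransferase at 0.71 ± 0.06 and its partner Sptlc2 at -0.28 ± 0.07.

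Genes of DNA replication and mitosis were higher in KO cells almost throughout. Of 45 tested S phase genes, 40 were called higher and 1 lower, 26 at least 2-fold higher, with a median log2 change of 1.19 beside 0.00 over all tested genes. The share called higher was thus far above the 37.4% of all tested genes. Of 37 tested mitosis genes, 34 were higher and 1 lower, 21 at least 2-fold higher (median 1.23). The 21 tested DNA repair and checkpoint genes had 15 higher and 2 lower (median 0.85), and the 14 pyrimidine and deoxynucleotide genes had 11 higher and 2 lower (median 0.85). Without KO replicate 2 the 1 lower S phase gene, Dbf4 (-0.31 ± 0.10), was not called.

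Mcm5, a subunit of the replicative helicase, was at 20.1, 21.4 and 20.9 FPKM in KO and 2.94, 2.37 and 2.21 FPKM in WT libraries (2.64 ± 0.09, adjusted p = 1.24e-15). Cdc6, which loads that helicase, was at 9.16, 8.14 and 8.12 FPKM in KO and 0.701, 0.562 and 0.608 FPKM in WT libraries (2.54 ± 0.09, adjusted p = 6.82e-15). The transcription factor gene E2f2 was at 3.47, 4.596 and 4.17 FPKM in KO and 0.0773, 0.0765 and 0.02101 FPKM in WT libraries (2.26 ± 0.12). At all 3 genes the lowest KO library was several times the highest WT library. The sliding clamp gene Pcna changed less on a higher level, with 108, 95.7 and 102 FPKM in KO and 43.6, 43.7 and 43.9 FPKM in WT libraries (1.200 ± 0.05). The other helicase subunits Mcm3 (2.395 ± 0.07), Mcm6 (1.46 ± 0.09), Mcm4 (1.19 ± 0.10) and Mcm2 (1.01 ± 0.05) were also called higher.

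Among mitotic genes, the cyclin gene Ccna2 was at 9.85, 9.41 and 9.35 FPKM in KO and 0.753, 0.523 and 0.641 FPKM in WT libraries (2.69 ± 0.12, adjusted p = 9.26e-14). Top2a, the topoisomerase that untangles chromosomes, was at 18.3, 14.7 and 15.3 FPKM in KO and 1.99, 1.72 and 1.66 FPKM in WT libraries (2.61 ± 0.08). The proliferation marker Mki67 was at 6.74, 5.79 and 6.09 FPKM in KO and 0.429, 0.387 and 0.326 FPKM in WT libraries (2.38 ± 0.09). These genes were low in WT cells and several times higher in each KO library. Pttg1, which encodes securin, went the other way, at 1.195, 1.19 and 1.38 FPKM in KO and 6.58, 7.1002 and 5.62 FPKM in WT libraries (-1.72 ± 0.10). The checkpoint adaptor gene Clspn changed by 1.96 ± 0.08. Of nucleotide genes besides Rrm2, the kinase gene Dck was at 8.97, 9.34 and 8.76 FPKM in KO and 2.58, 1.92 and 2.73 FPKM in WT libraries (1.56 ± 0.08), whereas Ctps2, a CTP synthase, averaged 0.726 ± 0.153 FPKM in KO and 5.59 ± 0.113 FPKM in WT libraries (SD, n = 3 each; -1.94 ± 0.08).

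The promoters of these genes carried the letters of known cell cycle elements. Windows of 250 bases before to 50 after each start site (RefSeq, GRCm38.p6) were searched on both strands for TTTGGCGC or TTTCGCGC, forms of the E2F element, and for TTTGAA, the core of the cell cycle gene homology region (CHR). The E2F letters were in 11 of 37 S phase genes with a window (29.7%), against 1.95% of 8459 tested genes with one and 0.813% of all 32851 windows. CHR letters were in 21 of 30 mitosis genes (70.0%), against 13.6% of tested genes and 17.9% of all windows. Among all genes at least 2-fold higher, E2F letters were in 2.74% and CHR letters in 16.5%. The stretches shown are those of the 3 members with the largest rises whose match lies before the start site, 5′ to 3′ on the gene's strand with the first such match in capitals. For the E2F letters these are Mcm5 (chr8:75109321-75109398, plus strand), Uhrf1 (1 of its 2 windows, chr17:56304093-56304170, plus strand) and Mcm6 (chr1:128359773-128359850, minus strand). For the CHR letters, with TTCAAA as the reverse complement, they are Top2a (chr11:99024328-99024403, minus strand), Mki67 (chr7:135716455-135716530, minus strand) and Kif11 (chr19:37376328-37376381, plus strand). A match is a description of the letters, not a site of binding.
Mcm5: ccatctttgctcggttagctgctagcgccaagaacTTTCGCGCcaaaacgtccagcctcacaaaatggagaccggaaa
Uhrf1: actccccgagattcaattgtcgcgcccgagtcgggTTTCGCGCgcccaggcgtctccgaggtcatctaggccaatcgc
Mcm6: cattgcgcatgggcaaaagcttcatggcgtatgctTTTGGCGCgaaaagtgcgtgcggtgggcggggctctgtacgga
Top2a: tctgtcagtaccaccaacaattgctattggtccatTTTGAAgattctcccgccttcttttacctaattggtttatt
Mki67: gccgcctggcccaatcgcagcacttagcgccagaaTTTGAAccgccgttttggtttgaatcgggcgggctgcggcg
Kif11: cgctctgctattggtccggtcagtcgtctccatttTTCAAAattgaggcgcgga

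**Figure D2:**
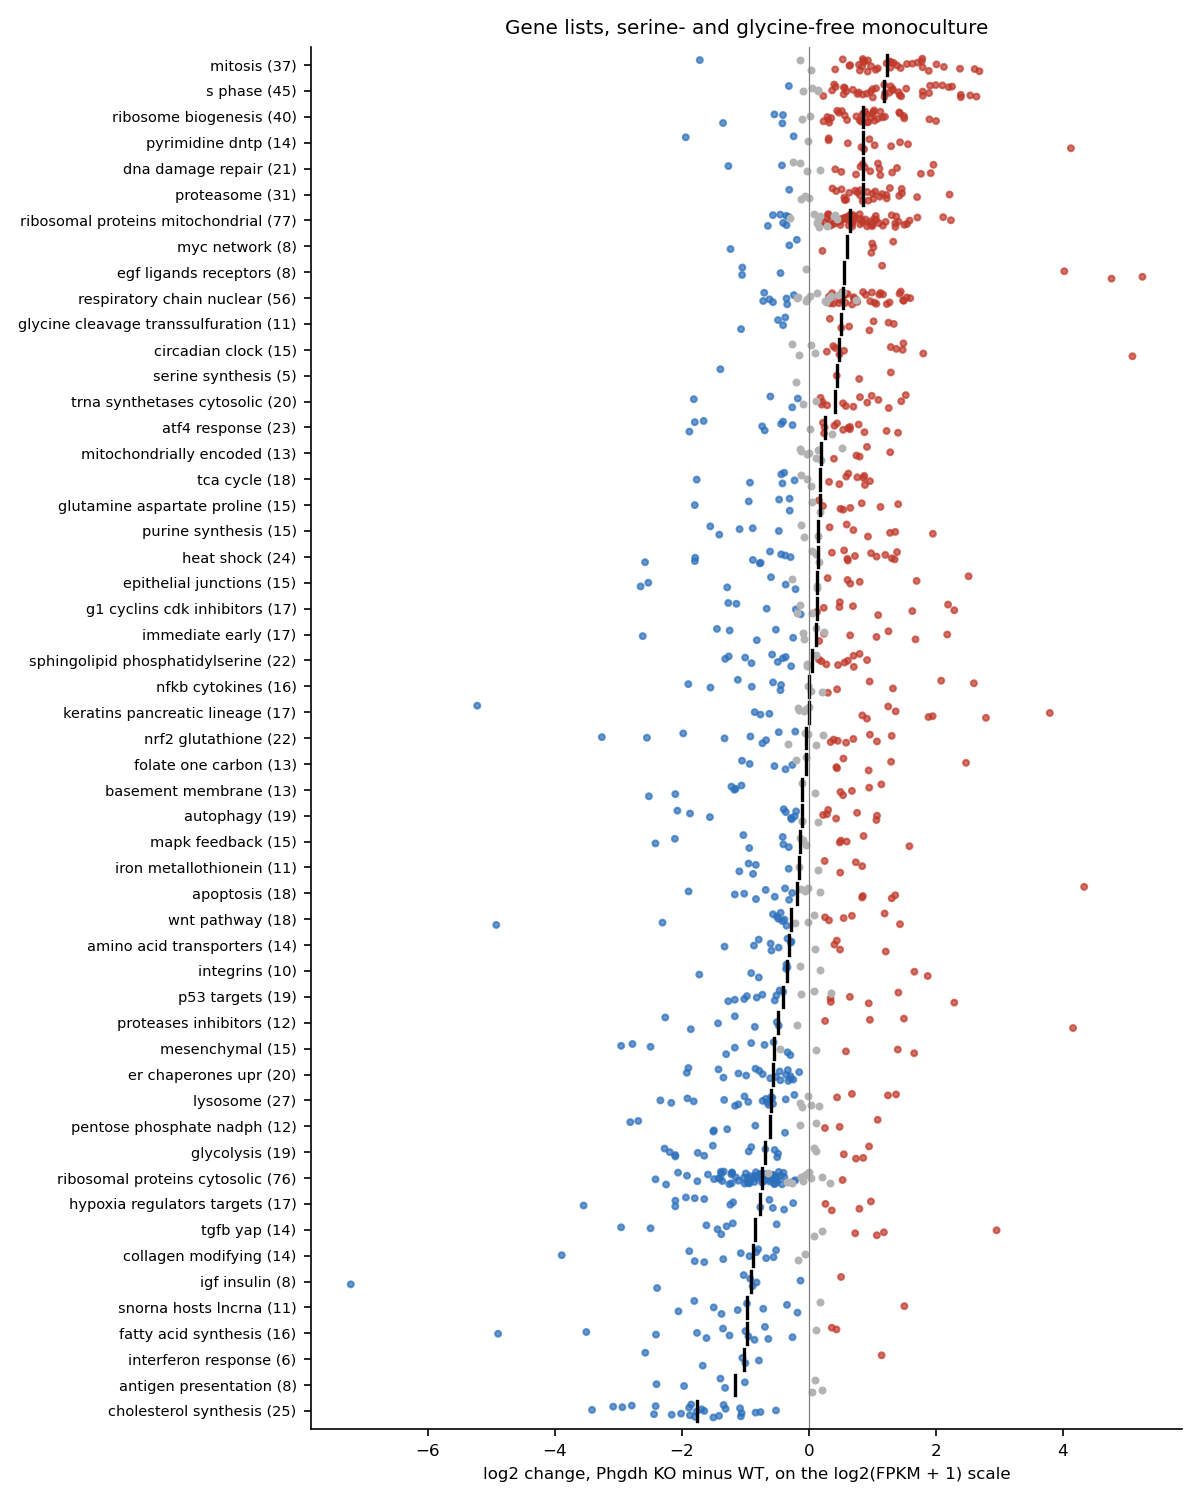
Log2 change in Phgdh KO minus WT cells in serine- and glycine-free monoculture for the members of each gene list, on the log2(FPKM + 1) scale. Points are genes (red called higher, blue called lower, grey not called), black bars are list medians and the number tested is in brackets. Mitosis (1.23) and S phase (1.19) have the highest medians and cholesterol synthesis (-1.77) the lowest.

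Cholesterol synthesis stood at the other end. All 25 listed genes of the pathway and its regulation were called lower in KO, 22 of them at least 2-fold, beside 36.3% of all tested genes called lower. In all 25 every KO library was below every WT library, as in 38.8% of all tested genes. The median log2 change was -1.77. Nsdhl, which removes a methyl group from sterol intermediates, was at 1.12, 0.983 and 1.604 FPKM in KO and 22.9, 22.02 and 23.01 FPKM in WT libraries (-3.41 ± 0.09, adjusted p = 3.63e-17). It stood below 5 FPKM in every KO library and above 20 FPKM in every WT library.

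The early synthase gene of the pathway, Hmgcs1, was at 8.57, 7.55 and 7.92 FPKM in KO and 31.1, 30.4 and 29.04 FPKM in WT libraries (-1.79 ± 0.10). Srebf2, which encodes the transcription factor SREBP2 that drives this pathway, was at 20.5, 25.7 and 24.2 FPKM in KO and 61.5, 59.4 and 61.1 FPKM in WT libraries (-1.34 ± 0.12, adjusted p = 4.15e-09). Insig1, which holds SREBP in the endoplasmic reticulum and is itself a target, was at 13.6, 13.8 and 13.97 FPKM in KO and 79.2, 75.8 and 77.7 FPKM in WT libraries (-2.41 ± 0.04). The change of these regulators and of the enzymes thus had the same sign. The smallest fall of the list was that of Msmo1 (-0.52 ± 0.11). Values of Fdps are uncertain, since this gene has processed copies that could take its reads.

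Of 16 tested fatty acid synthesis and desaturation genes, 13 were lower and 2 higher (median -0.97), beside 36.3% and 37.4% of all tested genes. After Scd2, the largest falls were in the desaturase Fads2, at 3.25, 4.03 and 4.12 FPKM in KO and 52.7, 50.8 and 56.2 FPKM in WT libraries (-3.502 ± 0.09), and in the desaturase Scd1. Scd1 was at 30.5, 26.9 and 26.98 FPKM in KO and 153, 148 and 158 FPKM in WT libraries (-2.41 ± 0.08). Fasn, the fatty acid synthase, was at 14.5, 17.8 and 16.96 FPKM in KO and 52.3, 50.8 and 52.8 FPKM in WT libraries (-1.61 ± 0.09). The exceptions were the long-chain acyl-CoA synthetases Acsl1 (0.44 ± 0.06) and Acsl4 (0.36 ± 0.11), both higher in KO. Under quantile normalization Acsl4 was no longer called.

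Of 17 cholesterol genes with a promoter window, 16 (94.1%) held CCAAT on either strand, the letters bound by NF-Y. They were in 43.4% of tested genes and 37.4% of all windows. CCAAT was also in 73.3% of mitosis and 59.5% of S phase genes with a window, lists that were mostly higher in KO. Among all genes at least 2-fold lower it was in 43.3%, so the high share belongs to the list and not to lower genes in general. TCACNCCAC, one form of the sterol regulatory element (SRE), was in 1 of the 17 (5.88%), Hmgcs1, against 1.36% of tested genes and 1.24% of all windows. None of the motif letters searched here contains another. Shown are the SRE letters of Hmgcs1 (chr13:119690179-119690257, plus strand), and the first CCAAT letters, read on the other strand as ATTGG, of Nsdhl (chrX:72918377-72918451, plus strand), Idi1 (chr13:8885526-8885600, plus strand) and Insig1 (chr5:28071162-28071235, plus strand). These are the members with the largest falls and a match before the start site, chosen with the same limits on chromosome and window as above.
Hmgcs1: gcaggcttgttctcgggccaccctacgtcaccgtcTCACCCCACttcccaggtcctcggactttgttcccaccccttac
Nsdhl: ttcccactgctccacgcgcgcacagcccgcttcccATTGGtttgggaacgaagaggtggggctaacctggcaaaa
Idi1: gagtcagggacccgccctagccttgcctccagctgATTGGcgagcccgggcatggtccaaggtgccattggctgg
Insig1: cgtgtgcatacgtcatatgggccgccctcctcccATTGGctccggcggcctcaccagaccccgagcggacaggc

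Glycolysis and hypoxia-response genes were mostly lower in KO cells. Of 19 tested glycolysis genes, 13 fell and 4 rose (median -0.68), and of 17 hypoxia regulators and targets, 13 fell and 4 rose (median -0.76). Over all tested genes 36.3% were called lower and 37.4% higher. Eno1, the enolase, was at 38.6, 40.98 and 41.6 FPKM in KO and 196, 204 and 196 FPKM in WT libraries (-2.27 ± 0.06, adjusted p = 1.33e-16). Aldoa, the aldolase, was at 126, 146 and 142 FPKM in KO and 465, 478 and 451 FPKM in WT libraries (-1.75 ± 0.10). Pfkm, a phosphofructokinase subunit, was at 2.01, 2.33 and 2.37 FPKM in KO and 12.3, 12.8 and 13.7 FPKM in WT libraries (-2.102 ± 0.07). None of these enzymes overlapped, with KO below WT as at 38.8% of all tested genes. The glucose carrier Slc2a1 went the other way, at 81.4, 95.9 and 95.2 FPKM in KO and 54.5, 51.6 and 54.99 FPKM in WT libraries (0.74 ± 0.06). The lactate carrier Slc16a1 (0.95 ± 0.05), the hexokinase Hk1 (0.86 ± 0.09) and the phosphofructokinase Pfkp (0.55 ± 0.05) were the other rises of the list.

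Bnip3, which marks mitochondria for removal in hypoxia, was at 0.729, 0.665 and 1.11 FPKM in KO and 19.4, 20.6 and 20.9 FPKM in WT libraries (-3.54 ± 0.07, adjusted p = 7.00e-19). The prolyl hydroxylase Egln3 was at 0.257, 0.371 and 0.353 FPKM in KO and 4.19, 5.05 and 4.86 FPKM in WT libraries (-2.101 ± 0.07). Pdk1, a kinase that inhibits pyruvate dehydrogenase, was at 1.02, 0.694 and 0.564 FPKM in KO and 6.81, 5.89 and 6.86 FPKM in WT libraries (-2.100 ± 0.08). All 3 were several times lower in KO. Their libraries did not overlap, as was so with KO below at 38.8% of all tested genes. The 4 genes that rose were Ndrg1 (0.98 ± 0.04), Vegfa (0.26 ± 0.05), Hif1a itself (0.36 ± 0.12) and Vhl (0.80 ± 0.08), whose product marks HIF1A for degradation. The call of Hif1a was lost without KO replicate 1 (0.28, adjusted p = 0.0591) and under quantile normalization, which also ended that of Vegfa. ACGTG is the core of the hypoxia response element (HRE) and also part of the E-box read by MYC and CLOCK. It was in 14 of 19 glycolysis genes (73.7%) and in 10 of 14 hypoxia genes with a window (71.4%). The share was 30.8% in tested genes and 19.6% in all windows. Among all genes at least 2-fold lower it was 28.2%, and among those at least 2-fold higher 27.9%. Shown are Pfkm (1 of 4 windows, chr15:98092418-98092492, plus strand), Aldoa (1 of 3 windows, chr7:126799341-126799415, minus strand) and the lactate exporter Slc16a3 (chr11:120949005-120949066, plus strand), with CACGT as the reverse complement. They are the glycolysis genes with the largest falls and a match before the start site, chosen with the same limits on chromosome and window as above.
Pfkm: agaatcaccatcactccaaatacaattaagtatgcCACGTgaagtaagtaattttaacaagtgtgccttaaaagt
Aldoa: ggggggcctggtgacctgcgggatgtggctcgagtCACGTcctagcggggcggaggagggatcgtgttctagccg
Slc16a3: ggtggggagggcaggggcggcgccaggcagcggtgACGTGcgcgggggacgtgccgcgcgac

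Genes that supply NADPH had 7 members lower and 3 higher of 12 tested, beside 36.3% lower and 37.4% higher of all tested genes. The isocitrate dehydrogenases led, with Idh1, the cytosolic form, at 3.88, 3.04 and 3.21 FPKM in KO and 29.3, 29.8 and 29.7 FPKM in WT libraries (-2.81 ± 0.06). Idh2, the mitochondrial form, was at 4.57, 5.64 and 5.21 FPKM in KO and 34.9, 42.5 and 38.1 FPKM in WT libraries (-2.68 ± 0.08). The NAD kinase gene Nadk rose, with 102, 107 and 107 FPKM in KO and 49.7, 49.2 and 48.3 FPKM in WT libraries (1.09 ± 0.04). Both dehydrogenases and the kinase were free of overlap, as were 78.6% of all tested genes. The 18 tricarboxylic acid cycle genes split into 9 higher and 6 lower, from Dlst (0.96 ± 0.04) to Suclg2 (-1.76 ± 0.09).

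Ribosomal protein genes of the cytosol and of mitochondria moved mostly in opposite directions. Of 76 cytosolic ribosomal protein genes, 63 were lower and 1 higher in KO (median -0.73), and 22 fell at least 2-fold. Of 77 tested mitochondrial ribosomal protein genes, 60 were higher and 7 lower (median 0.65). Over all tested genes 37.4% were called higher and 36.3% lower. Ribosome biogenesis factors rose in 34 of 40 cases and fell in 4 (median 0.86). The 3 medians kept their sign under quantile normalization, median-of-ratios scaling and the test on recovered reads. Without KO replicate 1, 58 cytosolic ribosomal protein genes were lower and 2 were higher.

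Rpl10, which completes the large subunit, was at 245, 229 and 229 FPKM in KO and 1104, 1159 and 1079.9 FPKM in WT libraries (-2.25 ± 0.05, adjusted p = 1.46e-17). Rps4x of the small subunit was at 327, 301 and 300.4 FPKM in KO and 1267, 1348 and 1255 FPKM in WT libraries (-2.06 ± 0.05). Rpl34 was the 1 gene called higher (0.53 ± 0.10). Ribosomal protein genes have many processed copies that can share reads, so single values are uncertain. In contrast, Mrpl49 of the mitochondrial large subunit was at 58.8, 59.6 and 55.99 FPKM in KO and 9.99, 13.8 and 11.1 FPKM in WT libraries (2.24 ± 0.09, adjusted p = 4.49e-14). Nop14, needed for the small subunit, was at 197, 179 and 180.2 FPKM in KO and 43.6, 47.1 and 45.7 FPKM in WT libraries (2.004 ± 0.08). Bop1, needed for the large one, was at 54.7, 66.8 and 67.04 FPKM in KO and 16.8, 15.1 and 16.3 FPKM in WT libraries (1.900 ± 0.12). The nucleolar protein gene Npm1 was an exception, at 396, 330.3 and 329 FPKM in KO and 889.8, 922 and 871 FPKM in WT libraries (-1.35 ± 0.07). Host genes of small nucleolar RNAs and other long noncoding RNAs were lower in 9 of 11 cases and higher in 1, with Gas5 at 46.7, 41.1 and 43.3 FPKM in KO and 121, 121 and 103 FPKM in WT libraries (-1.37 ± 0.07) and Snhg15 in the other direction (1.51 ± 0.12).

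Nuclear genes of the respiratory chain followed the mitochondrial ribosome, with 36 of 56 higher and 7 lower (median 0.54). Over all tested genes 37.4% were called higher and 36.3% lower. Ndufb6 of complex I was at 41.3, 56.9 and 52.6 FPKM in KO and 15.2, 16.8 and 15.4 FPKM in WT libraries (1.598 ± 0.29, adjusted p = 5.11e-05), with KO replicate 1 the lowest of the KO libraries. Of 13 mitochondrially encoded genes, 5 were called higher and none lower, or 3 without KO replicate 1. Cytochrome b (mt-Cytb) was at 3966, 3288 and 3414 FPKM in KO and 1485, 1429 and 1455 FPKM in WT libraries (1.28 ± 0.08). Among 20 cytosolic aminoacyl-tRNA synthetases, 14 rose and 4 fell (10 and 6 under quantile normalization), from Yars (1.53 ± 0.04) to the glutaminyl enzyme Qars (-1.81 ± 0.05). The seryl enzyme Sars changed by 0.19 ± 0.04, and was not called under quantile normalization.

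Most proteasome genes were higher in KO, whereas chaperone genes of the endoplasmic reticulum were lower. Of 31 proteasome subunit genes, 27 were higher in KO and 1 lower, 13 at least 2-fold higher (median 0.85), beside 37.4% of all tested genes called higher. Psmc2, an ATPase of the regulatory cap, was at 145, 138 and 140.2 FPKM in KO and 28.4, 30.4 and 29.9 FPKM in WT libraries (2.22 ± 0.09, adjusted p = 4.49e-14). Psmb3, of the core, was at 107, 129 and 120.3 FPKM in KO and 37.4, 34.98 and 34.4 FPKM in WT libraries (1.71 ± 0.09). Psmd8 was the 1 subunit gene called lower (-0.31 ± 0.05), and without KO replicate 1 there were 2. Under quantile normalization 4 subunits were lower, while the list median stayed positive at 0.62.

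All 20 chaperone and stress genes of the endoplasmic reticulum (ER) were lower in KO, 5 at least 2-fold (median -0.56), whereas under quantile normalization 16 were lower and 1 was higher (median -0.72). The change was modest at the most abundant ones. Hspa5, the chaperone BiP, was at 1147, 996 and 1004 FPKM in KO and 1301, 1328 and 1296 FPKM in WT libraries (-0.32 ± 0.07, adjusted p = 4.45e-04), a call that quantile normalization ended. Pdia4, a disulfide isomerase, was at 127, 126 and 122 FPKM in KO and 312, 323 and 322 FPKM in WT libraries (-1.34 ± 0.06, adjusted p = 4.03e-14). Sdf2l1 was at 52.6, 76.4 and 70.9 FPKM in KO and 240.4, 261 and 255 FPKM in WT libraries (-1.92 ± 0.13). Cytosolic chaperones were divided, with 11 of 24 higher and 10 lower, beside 37.4% and 36.3% of all tested genes. The constitutive chaperone Hspa8 was at 273, 243 and 246 FPKM in KO and 1521, 1539.5 and 1498 FPKM in WT libraries (-2.58 ± 0.10) and Hsp90ab1 changed by -1.79 ± 0.05, whereas the chaperonin subunits Cct8 (1.39 ± 0.08), Cct3 (1.21 ± 0.05) and Cct6a (0.98 ± 0.11) rose. Hspa8 too has processed copies that could share reads.

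Lysosomal genes fell in 18 of 27 cases and rose in 4 (median -0.59), beside 36.3% lower and 37.4% higher of all tested genes. The falls were among hydrolases, such as Hexa, at 12.2, 13.2 and 12.8 FPKM in KO and 61.6, 61.97 and 58.2 FPKM in WT libraries (-2.16 ± 0.08), Gusb (-2.34 ± 0.08) and Glb1 (-1.81 ± 0.09). The rises were Npc1 (0.45 ± 0.05), which exports cholesterol from the lysosome, and the proton pump subunits Atp6v1a (1.37 ± 0.07), Atp6v0d1 (1.25 ± 0.04) and Atp6v0a1 (0.68 ± 0.05). Of 19 autophagy genes, 7 rose and 9 fell, and Gabarap rose by 1.06 ± 0.09 while Wipi1 changed by -2.07 ± 0.06.

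The amino acid response was uneven. Among 23 tested ATF4-response genes, 13 were higher and 8 lower (median 0.25), beside 37.4% and 36.3% of all tested genes. Under quantile normalization 11 were higher and 8 lower, and the median was 0.02. Atf4 itself, at 350.4, 359 and 349.5 FPKM in KO and 268, 288 and 268 FPKM in WT libraries, was not called (0.36 ± 0.20, adjusted p = 0.107) although the libraries did not overlap. With only the groups compared in the fit, under quantile normalization or without the KO libraries that stood apart, Atf4 was called higher. The pseudokinase gene Trib3 was at 222, 252 and 250.4 FPKM in KO and 103, 109 and 95.5 FPKM in WT libraries (1.23 ± 0.15, adjusted p = 5.88e-07). The asparagine synthetase gene Asns changed by 0.54 ± 0.08 and Ddit3, which encodes CHOP, by 0.88 ± 0.06. In the other direction, Ddit4, an inhibitor of mTORC1, was at 5.93, 10.1 and 10.003 FPKM in KO and 31.1, 37.9 and 32.7 FPKM in WT libraries (-1.88 ± 0.29). The proline synthesis gene Pycr1 was at 6.85, 7.76 and 8.22 FPKM in KO and 27.1, 29.5 and 29.9 FPKM in WT libraries (-1.79 ± 0.07). Of 15 tested genes of glutamine, aspartate and proline metabolism, 8 rose and 5 fell, or 3 fell without KO replicate 1. Of 14 tested amino acid transporters, 9 fell and 4 rose. The cystine importer Slc7a11 was at 4.66, 4.12 and 3.85 FPKM in KO and 12.8, 10.9 and 12.5 FPKM in WT libraries (-1.33 ± 0.09), and its partner Slc3a2 changed by -0.86 ± 0.08. The serine carriers Slc1a4 and Slc1a5 changed by 0.40 ± 0.05 and -0.60 ± 0.15.

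Antioxidant genes of the NRF2 and glutathione list had 8 members higher and 9 lower of 22, close to the 37.4% and 36.3% of all tested genes. The glutathione transferases Gstm1, at 0.309, 0.705 and 0.809 FPKM in KO and 13.8, 13.6 and 15.4 FPKM in WT libraries (-3.26 ± 0.11, adjusted p = 1.66e-15), and Gsta4 (-2.55 ± 0.10) fell furthest, while the peroxidase Gpx1 (1.31 ± 0.07) and the glutathione synthetase Gss (1.07 ± 0.06) rose. Of 11 iron and metallothionein genes, 4 rose and 5 fell, with the ferritin chains apart, Fth1 at -0.88 ± 0.07 and Ftl1 at 0.50 ± 0.16. The transferrin receptor gene Tfrc was at 28.4, 22.1 and 22.8 FPKM in KO and 52.97, 51.01 and 55.04 FPKM in WT libraries (-1.09 ± 0.08).

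EGF family, MAPK feedback and immediate early genes were each split, beside 37.4% higher and 36.3% lower of all tested genes. Of the 8 tested EGF family genes, 4 were higher and 3 lower. The ligand genes Hbegf (-1.05 ± 0.05) and Tgfa (-0.44 ± 0.06) and the receptor gene Erbb2 (-1.05 ± 0.07) fell, and the receptor inhibitor Errfi1 rose (1.16 ± 0.05). Egfr itself was close to 0, with up to 0.0277 FPKM in KO and up to 0.0754 FPKM in WT libraries, and was not tested. Of 15 MAPK feedback genes, 5 rose and 7 fell, with the ERK phosphatase gene Dusp5 at 163, 208 and 194 FPKM in KO and 61.3, 63.1 and 60.7 FPKM in WT libraries (1.59 ± 0.09) against the inhibitor gene Spry1 (-2.41 ± 0.08). The 17 immediate early genes had 7 higher and 6 lower (5 and 7 under quantile normalization), led by Egr3. This gene was at 8.76, 9.23 and 9.21 FPKM in KO and 1.47, 0.848 and 1.397 FPKM in WT libraries (2.18 ± 0.12), and Fosl1 rose by 1.68 ± 0.09 while Jund changed by -2.61 ± 0.42.

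Myc, a growth-promoting transcription factor gene, was at 285, 319 and 322 FPKM in KO and 159, 154 and 153 FPKM in WT libraries (0.99 ± 0.07, adjusted p = 7.48e-11). Of 8 MYC network genes, 5 rose and 3 fell, or 1 fell without WT replicate 2, and under quantile normalization 4 rose and 1 fell. The antagonist Mnt was among those that fell (-1.23 ± 0.21). The cell cycle inhibitor Cdkn1a (p21) rose beside the replication genes, with 38.5, 48.99 and 47.1 FPKM in KO and 7.71, 8.26 and 9.02 FPKM in WT libraries (2.29 ± 0.11, adjusted p = 7.40e-13). The G1 cyclin gene Ccnd1 was at 77.5, 84.5 and 82.5 FPKM in KO and 37.98, 35.7 and 39.3 FPKM in WT libraries (1.09 ± 0.05). Over the 17 G1 cyclins and inhibitors, 9 rose and 5 fell, or 7 and 6 under quantile normalization. Of 19 p53 targets, 10 fell and 6 rose, beside 36.3% lower and 37.4% higher of all tested genes. Cdkn1a and the kinase gene Plk2 (1.41 ± 0.06) stood against Ccng1 (-1.27 ± 0.10) and the pro-apoptotic gene Pmaip1 (-1.02 ± 0.09). Of 18 apoptosis genes, 5 rose and 9 fell, or 6 fell without KO replicate 1, beside the same shares of all tested genes. Pawr and the survival gene Mcl1 (1.31 ± 0.05) were among the rises.

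Most clock genes were higher in KO. Of 15 tested, 11 were higher and none lower (median 0.48), beside 37.4% and 36.3% of all tested genes. However, 1 was lower without KO replicate 1 and 3 were lower under quantile normalization. After Nr1d1, the largest rises were in the repressor gene Per2, at 5.16, 5.81 and 5.43 FPKM in KO and 0.866, 0.966 and 0.727 FPKM in WT libraries (1.804 ± 0.08), in the repressor Ciart (1.49 ± 0.10) and in both activators. Arntl, which encodes BMAL1, was at 9.73, 10.01 and 9.99 FPKM in KO and 2.92, 2.79 and 3.03 FPKM in WT libraries (1.48 ± 0.07), and its partner Clock changed by 1.38 ± 0.11. Nr1d2, the close relative of Nr1d1, was not called (-0.16 ± 0.09) and its libraries overlapped, but without KO replicate 1 it was called lower (-0.28, adjusted p = 0.00749). Both activators and repressors of the clock were among the rises.

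**Figure D3:**
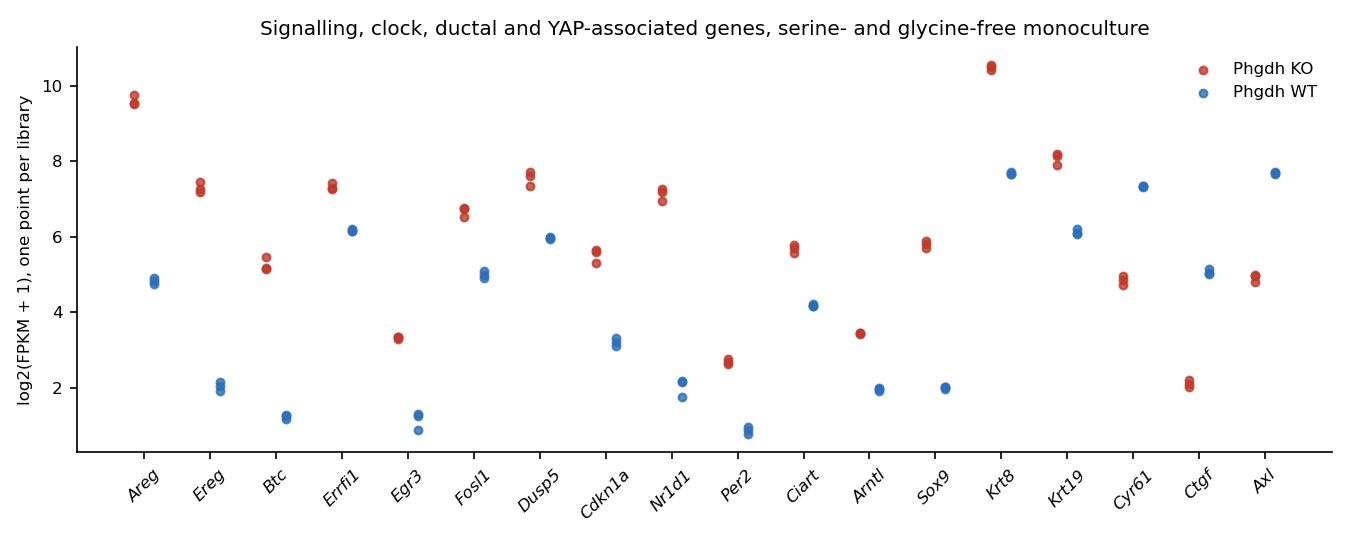
Level of selected signalling, clock, ductal and YAP-associated genes as log2(FPKM + 1) in serine- and glycine-free monoculture, with one point per library (red Phgdh KO, blue WT, 3 each). KO points lie above WT points at the plotted EGF family ligands and clock genes, Sox9 and the keratins, and below them at Cyr61, Ctgf and Axl.

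Ductal keratins, already abundant in WT cells, rose further in KO cells. Krt8 was at 1352, 1481 and 1434 FPKM in KO and 203, 208 and 203 FPKM in WT libraries (2.79 ± 0.07, adjusted p = 6.34e-17). Its partner Krt18 was at 2554, 2548 and 2524 FPKM in KO and 681, 723 and 659 FPKM in WT libraries (1.89 ± 0.06). Sox9, a transcription factor of pancreatic ducts, was at 51.4, 55.5 and 58.04 FPKM in KO and 2.896, 3.099 and 3.09 FPKM in WT libraries (3.795 ± 0.08, adjusted p = 1.40e-18). The rise of the summed ductal markers described above lay mostly in Krt18 and Krt8, followed by Krt19 (1.95 ± 0.06), and Muc1 was the marker that fell furthest. Over the 17 keratin and pancreatic lineage genes, 8 rose and 4 fell, beside 37.4% and 36.3% of all tested genes. The pancreatic transcription factor genes Pdx1 (1.37 ± 0.10) and Klf5 (1.25 ± 0.05) were among the rises.

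Junction genes were split much as all tested genes were (37.4% higher and 36.3% lower), with 6 higher and 6 lower of 15. They ranged from the epithelial transcription factor gene Elf3 (2.52 ± 0.12) to the tight junction gene Cldn6 (-2.65 ± 0.17), with Cdh1 at -0.21 ± 0.04. Of 15 mesenchymal genes, 10 fell and 3 rose, beside the same shares of all tested genes. Axl, a receptor kinase, was at 26.7, 30.5 and 30.6 FPKM in KO and 206, 203 and 208 FPKM in WT libraries (-2.78 ± 0.08). The rises included Twist1, at 1.61, 1.63 and 1.69 FPKM in KO and 0 FPKM in all 3 WT libraries, which represses epithelial genes, and the N-cadherin gene Cdh2. Cdh2 was at 2.72, 1.94 and 2.01 FPKM in KO and 0, 0.0397 and 0 FPKM in WT libraries (1.66 ± 0.09), so both genes were low throughout. Among 14 TGF-beta and YAP-associated genes, 8 fell and 4 rose. The YAP targets Ctgf, at 3.32, 3.09 and 3.64 FPKM in KO and 31.1, 32.2 and 34.7 FPKM in WT libraries (-2.95 ± 0.07), and Ankrd1 (-1.29 ± 0.06) fell. Their fellow target Cyr61 was at 25.5, 29.97 and 27.9 FPKM in KO and 161, 159 and 161 FPKM in WT libraries (-2.49 ± 0.06). The activin subunit gene Inhba rose, with 41.5, 33.98 and 34.2 FPKM in KO and 3.65, 3.55 and 4.26 FPKM in WT libraries (2.96 ± 0.11).

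Matrix and adhesion genes followed no single direction except for collagen processing. The counts here stand beside 37.4% higher and 36.3% lower of all tested genes. Of 14 collagen-modifying genes, 12 were lower and none higher (median -0.88), including Crtap (-1.88 ± 0.10) and the prolyl hydroxylases P4ha1 (-1.64 ± 0.09) and P4ha2 (-1.795 ± 0.07), which are also hypoxia targets and counted there. Of 13 basement membrane genes, 5 rose and 6 fell. The laminin gene Lama5 was at 25.9, 34.1 and 33.1 FPKM in KO and 184, 174 and 187 FPKM in WT libraries (-2.52 ± 0.13). Integrin subunits differed in direction, with Itga2 at 52.4, 44.1 and 45.7 FPKM in KO and 12.1, 12.1 and 12.3 FPKM in WT libraries (1.87 ± 0.09) and Itga6 up by 1.66 ± 0.08. Itga3 was at 34.2, 39.8 and 38.02 FPKM in KO and 126, 125 and 125 FPKM in WT libraries (-1.72 ± 0.08). Over 10 integrins, 2 rose and 6 fell. Of 8 tested IGF and insulin pathway genes, 7 fell and 1 rose, and Igfbp3 was at 29.7, 33.4 and 34.6 FPKM in KO and 173, 172 and 178 FPKM in WT libraries (-2.39 ± 0.05). Among 12 proteases and inhibitors 4 rose and 7 fell, with the urokinase receptor gene Plaur (1.499 ± 0.10) next to Mmp13. Of 18 Wnt pathway genes, 9 fell and 6 rose, with Wnt7b (1.44 ± 0.17) opposed to Wnt7a.

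Immune genes were partly below the filter. The tested antigen presentation and interferon genes were mostly lower in KO, beside 36.3% of all tested genes called lower. Of 8 tested antigen presentation genes, 5 fell and none rose. B2m, the shared light chain of class I molecules, was at 59.2, 55.1 and 50.8 FPKM in KO and 142, 141 and 132 FPKM in WT libraries (-1.32 ± 0.11), and Tapbp, which helps load peptides, changed by -1.96 ± 0.11. Cd274, which encodes PD-L1, was at 1.15, 0.803 and 1.16 FPKM in KO and 9.53, 8.93 and 10.7 FPKM in WT libraries (-2.397 ± 0.11, adjusted p = 1.26e-13). Values of the class I heavy chain genes are uncertain, since these have close copies. Only 6 of 24 interferon response genes passed the filter, 5 lower and 1 higher. Of 16 NF-kB and cytokine genes, 6 rose and 7 fell, near the 37.4% and 36.3% of all tested genes. The alarmin gene Il33 was at 7.24, 6.08 and 7.02 FPKM in KO and 0.149, 0.296 and 0.409 FPKM in WT libraries (2.600 ± 0.12). It stood against Ccl20 (-1.896 ± 0.21) and Ptgs2 (-1.12 ± 0.09).

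The genotype difference was then set against that in monoculture with serine and glycine and that in serine- and glycine-free coculture with hepatocytes, which share no library with it. In medium with serine and glycine 5145 genes were called (42.7%), 420 of them at least 2-fold (3.48%), and in free coculture 6470 (53.6%), 816 of them at least 2-fold (6.77%), against 8880 and 2836 (23.5%) in free monoculture. The median size of the log2 change was 0.56 in free monoculture, 0.23 with serine and glycine and 0.29 in free coculture. The difference between the genotype differences was called at 7385 genes for the medium (61.2%) and at 7343 genes for coculture (60.9%). Of the 2836 genes changed at least 2-fold in free monoculture, 2367 had both differences called in the same direction, 1165 of them higher and 1202 lower in KO. Both differences contain the free monoculture change by which these genes were chosen. A shared direction is favoured by that choice, so this count is a description. Direction was shared with the cultures containing serine and glycine at 3142 genes called in both, which is 35.4% of the calls in free monoculture and 61.1% of those with serine and glycine, while 1074 genes called in both had opposite signs.

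**Figure D4:**
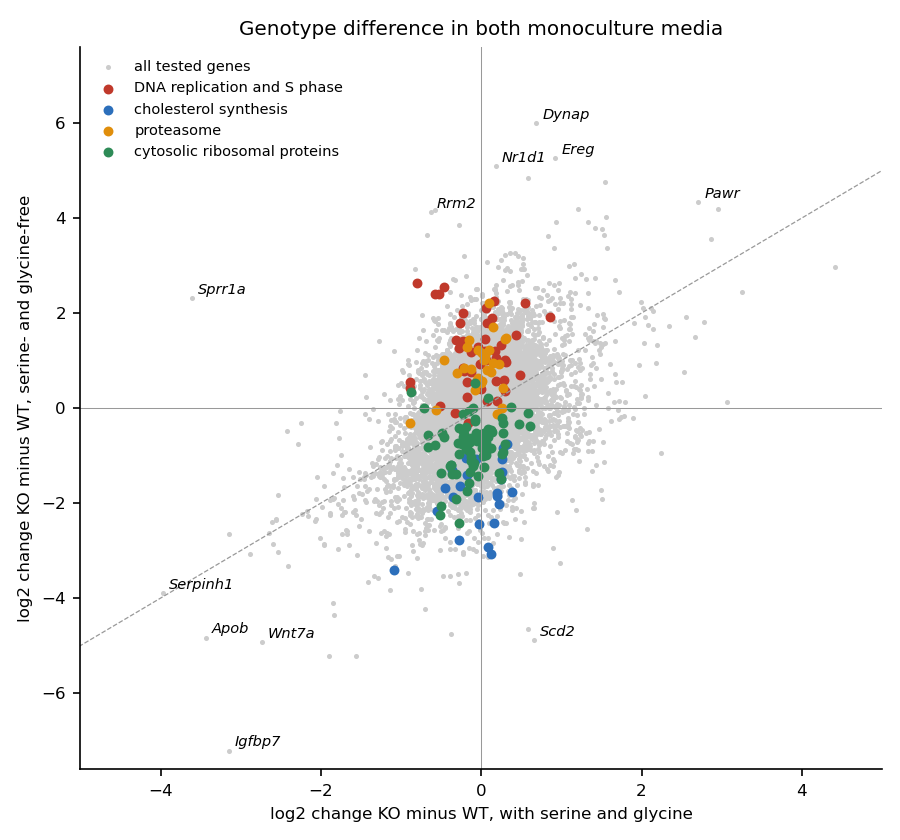
Log2 change in Phgdh KO minus WT monocultures without serine and glycine (vertical) against the same with serine and glycine (horizontal), one point per tested gene, with 4 gene lists in colour and the dashed line marking equal changes. On the vertical axis most S phase and proteasome genes lie above 0 and most cholesterol and cytosolic ribosomal protein genes below 0, with median changes on the horizontal axis of -0.02, 0.01, 0.07 and -0.12.

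Most list patterns of free monoculture were smaller or missing in the other settings. Of 45 S phase genes, the difference from cultures with serine and glycine was called in the higher direction at 37 and the difference from free coculture at 40, none in the lower, beside 31.4% and 31.1% of all tested genes. All 25 cholesterol genes had both differences called lower, with medians of -1.61 and -1.39, beside 29.8% and 29.7% of all tested genes. The genotype difference itself had a median of 0.07 with serine and glycine and -0.09 in free coculture in that list. For the proteasome, 29 of 31 genes had the difference between media called higher and 29 the difference from coculture, and for cytosolic ribosomal proteins 52 and 43 of 76 were called lower. Mitosis genes differed in 34 and 32 of 37 cases in the higher direction, although in free coculture 20 of them were also higher in KO (median 0.31), beside 26.3% of all tested genes. ER chaperone genes had 19 and 16 of 20 differences called lower, and with serine and glycine 9 of them were higher in KO, beside 21.5% of all tested genes. In the other direction, 21.1% of all tested genes were lower in KO with serine and glycine and 27.4% in free coculture.

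**Figure D5:**
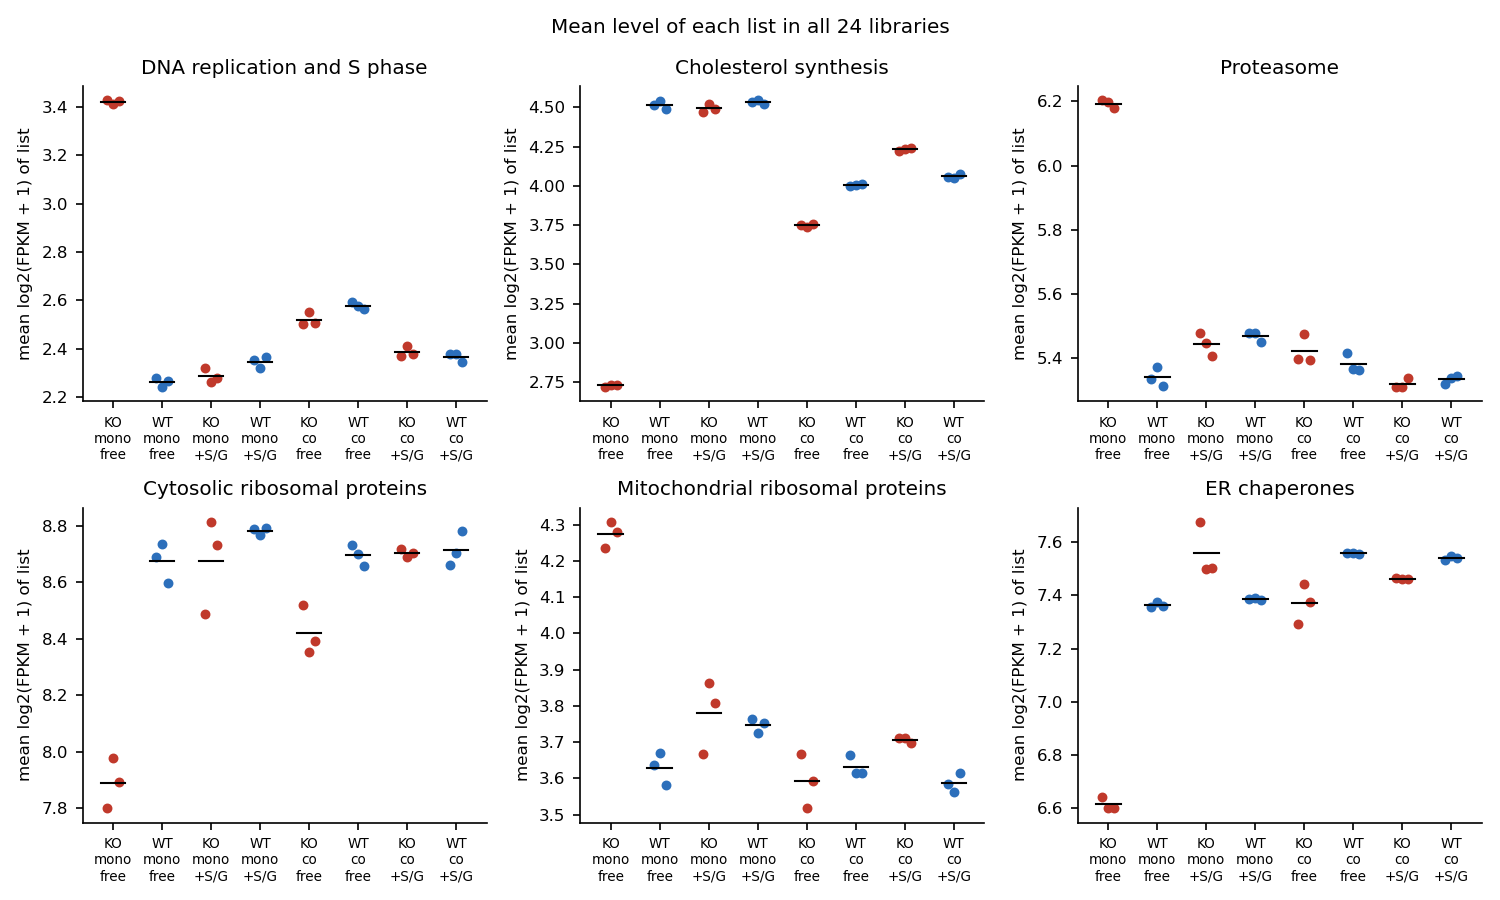
Mean log2(FPKM + 1) over the tested members of 6 gene lists in each of the 24 libraries (red Phgdh KO, blue WT, black bar the group mean), by culture (mono or co) and medium (free, or with serine and glycine, +S/G). In each panel the 3 KO libraries in free monoculture lie outside the range of the other 21, above it for S phase, proteasome and mitochondrial ribosomal proteins and below it for the other lists.

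The spread over libraries shows how far these levels lay apart. The mean log2(FPKM + 1) of the S phase list was 3.41 to 3.43 in KO and 2.24 to 2.28 in WT libraries of free monoculture, and 2.26 to 2.59 in the remaining 18 libraries. For cholesterol synthesis it was 2.72 to 2.74 in KO and 4.49 to 4.54 in WT libraries, and 3.74 to 4.55 in the rest. Cocultures were lower than WT monocultures for cholesterol synthesis whatever the genotype, and none was as low as the KO free monocultures. For cytosolic ribosomal proteins the KO libraries were at 7.80 to 7.98 and the WT libraries at 8.60 to 8.74, with 8.35 to 8.81 in the rest. All 3 lists were thus outside the range of the other 21 libraries in the KO free monocultures.

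By single genes, the difference between media was largest for Sprr1a, a cornified envelope precursor. It was at 834, 905 and 905 FPKM in KO and 186, 180.02 and 167 FPKM in WT free monocultures (2.31 ± 0.06), but averaged 12.5 ± 0.81000 FPKM in KO and 164 ± 11.5 FPKM in WT cultures with serine and glycine (-3.61 ± 0.06), a difference of 5.92 ± 0.08 (adjusted p = 2.06e-20). Scd2 lay at the other end, since its genotype difference was 0.66 ± 0.07 with serine and glycine and -0.26 ± 0.07 in free coculture, so that the differences were -5.55 ± 0.09 and -4.63 ± 0.09 (adjusted p = 4.86e-19 and 1.70e-17). Dynap, Nr1d1, Rrm2 and Mmp13 had the next largest differences between media upwards (5.31, 4.92, 4.76 and 4.74), and Lgals4, Slco4a1, Gstm1 and Igfbp7 downwards (-5.25, -4.39, -4.24 and -4.06). Against free coculture the largest were Rrm2 (4.82), Ereg (4.203), the PCNA-binding gene Pclaf (3.95), Dynap (3.94) and Nr1d1 (3.64) upwards, and Scd2 (-4.63), Slco4a1 (-4.44), Gstm1 (-4.18), Lrrc66 (-4.08) and Depp1 (-3.96) downwards. Rrm2 was lower in KO in the other 2 settings (-0.63 ± 0.12 with serine and glycine and -0.69 ± 0.12 in free coculture).

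For some genes no difference between the settings was called. Serpinh1 changed by -3.89 ± 0.05 in free monoculture, -3.97 ± 0.05 with serine and glycine and -3.93 ± 0.05 in free coculture. Free monoculture thus differed from them by 0.08 ± 0.07 and 0.04 ± 0.07, neither called. KO means were 0 FPKM in both of those other settings, so these differences rest almost only on the WT means (13.9, 14.7 and 14.3 FPKM in the same order). They cannot show a change of Serpinh1 in KO. Hexa changed by -2.16 ± 0.08, -2.18 ± 0.08 and -1.93 ± 0.08 in the same order, with uncalled differences of 0.01 ± 0.11 and -0.23 ± 0.11. Ndrg1 and Slc2a1, which rose in the hypoxia and glycolysis lists while most members fell, changed by 0.79 ± 0.04 and 0.85 ± 0.06 with serine and glycine. Slc2a1 had no called difference in either comparison (-0.11 ± 0.09 and 0.16 ± 0.09), and Ndrg1 differed by 0.19 ± 0.06 between media, which was called. Apob, Wnt7a, Cdh17 and Pawr were also at least 2-fold apart in all 3 settings, Apob by -3.44 ± 0.09 with serine and glycine and -4.29 ± 0.09 in free coculture, with the free monoculture change larger in each (differences between media of -1.39, -2.18, 1.24 and 1.63, all called).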

How the data were processed

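RNA from mouse HY19636 pancreatic cancer cells was sequenced in 24 libraries, 3 in each of 8 groups. The authors deposited FPKM values per gene for GRCm38 and, per the submitters' processing notes, used HISAT2. The sources used here do not give the counting tool, its strand setting or the annotation release. The FPKM values and gene lengths gave whole reads for every value within 0.01, so the depth per library is known. The total behind the FPKM scaling was 0.9687 to 1.0681 times the reads in genes (1.0018 to 1.0134 in KO and 1.0608 to 1.0681 in WT free monocultures), and what it counts is not stated.

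Log2(FPKM + 1) of the 12061 genes that reached an FPKM of 1 in 3 libraries or more was fitted with limma 3.58.1 in R 4.3.3, with 8 group means and 16 residual degrees of freedom. Groups were taken from the sample titles. P-values were adjusted by the Benjamini-Hochberg method over all tested genes. The fit was tested on simulated data. The genes named first are the 12 largest called rises and 12 largest falls of named protein-coding genes without overlap and with at least 5 FPKM on average in the higher group, and for the differences between settings the 5 largest each way. List members were chosen with earlier results of these data known, as were the comparison and the lists themselves, and some genes are in several lists. Some list members are counted with their lists but not reported here by name. Promoter windows and their coordinates are from RefSeq (GRCm38.p6). Alternatives were other pseudocounts, filters, scalings, samples in the fit, a replicate block, voom on recovered reads and leaving out libraries.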

Additional observations from a re-analysis of the deposited data

Results flagged for a closer look

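Among named protein-coding genes, 7 differed at least 2-fold between the genotypes in both monocultures but with opposite signs, without overlap between KO and WT in free monoculture, and are given here for that reversal. Their difference between media was called by limma at all 7, which the choice of genes fixes, so its values are a description. The cornified envelope gene Sprr1a had a difference of 5.92, being higher in KO without serine and glycine (2.31 ± 0.06) and lower with them (-3.61 ± 0.06), while in free coculture it changed by -0.01 ± 0.06 and was not called. The kinase gene Stk39 had a difference of 2.696, with mean levels of 12.04 ± 0.699 FPKM in KO and 3.87 ± 0.265 FPKM in WT free monocultures (SD, n = 3 each), against 1.22 ± 0.333 FPKM in KO and 4.37 ± 0.825 FPKM in WT cultures with serine and glycine.

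The other 5 were lower in KO without serine and glycine and higher with them. The cystine importer Slc7a11 had a difference of -2.71, with 4.21 ± 0.414 FPKM in KO and 12.1 ± 1.03 FPKM in WT free monocultures, against 27.2 ± 4.04 FPKM in KO and 9.74 ± 0.135 FPKM in WT cultures with serine and glycine. In free coculture it was higher in KO as well (2.32 ± 0.09). The pantetheinase gene Vnn1 had a difference of -3.87, with -2.55 ± 0.13 without and 1.32 ± 0.13 with serine and glycine. The cytochrome P450 gene Cyp2s1 had a difference of -3.07, with -1.93 ± 0.06 without and 1.14 ± 0.06 with serine and glycine. The inositol transporter gene Slc5a3 had a difference of -2.66, with -1.13 ± 0.08 without and 1.53 ± 0.08 with serine and glycine. Rgl1, which encodes an exchange factor of Ral GTPases, had a difference of -2.637, with -1.202 ± 0.08 without and 1.43 ± 0.08 with serine and glycine.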

How the results depend on the processing

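In free monoculture 4506 genes were higher and 4374 lower in KO. Leaving out single libraries, or both KO replicate 1 libraries, gave 4304 to 4553 higher and 4192 to 4404 lower. Genes changed at least 2-fold then numbered 1343 to 1382 higher and 1445 to 1523 lower. The difference between media had 3605 to 3996 genes higher and 3421 to 3762 lower, and that from coculture 3567 to 4017 higher and 3405 to 3783 lower. A filter at an FPKM of 5 tested fewer genes and left 2914 lower. A pseudocount of 0.1 gave 2254 and voom on recovered reads 2492 genes at least 2-fold lower. The change of Phgdh was 0.19 under quantile normalization and was called lower with only the groups of the contrast (adjusted p = 0.0492) and by voom (0.0255), with limma adjusted p-values of 0.0255 to 0.392 over all alternatives. Every other all-gene count stayed within 1.5 times its main value. Of 203 genes named in the text, 194 kept their direction and side of the threshold in all alternatives computed. Quantile normalization ended the calls of Acsl4, Dbf4, Hif1a, Hspa5, Sars and Vegfa, leaving out KO replicate 1 that of Hif1a and KO replicate 2 that of Dbf4, and Atf4 and Nr1d2 were called under 3 and 4 alternatives. Of 1620 list counts under alternatives, 38 moved by more than 1.5 times. The causes were not tested except where given.

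Pairing by replicate number was not given by the labels, and same-numbered KO and WT libraries had deviations correlated by 0.049, 0.061 and -0.02. With the replicate block 4468 genes were higher and 4342 lower. Depth limits genes near 1 FPKM, and 3 libraries a group cannot pass an exact permutation test below p = 0.1, so single p-values rest on the spread shared by all 24 libraries.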

Other observations

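Of 365 zinc finger genes of the Zfp family, mostly encoding transcriptional repressors, 247 were tested. In KO free monocultures 54 were higher and 116 lower (median -0.21), beside 37.4% and 36.3% of all tested genes. Under quantile normalization 64 were higher and 100 lower (median -0.095). In monoculture with serine and glycine 24 were higher and 78 lower in KO, beside 21.5% and 21.1% of all tested genes, and in free coculture 32 and 91, beside 26.3% and 27.4%.

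The genotype difference had different medians by chromosome. At 16 of 20 chromosomes the median had the same sign in all 4 settings, which share no library, but its size could differ between them. The 4 chromosomes with the medians farthest from 0 in free monoculture, chosen after their values were seen, are given first. Over 380 tested genes on the X chromosome the median log2 change in KO relative to WT was -0.27 in free monoculture, -0.35 in monoculture with serine and glycine, -0.27 in free coculture and -0.39 in coculture with serine and glycine, and 32.9, 16.1, 24.5 and 14.5% of those genes had a positive change. Chromosome 8 (666 genes) had medians of -0.22, -0.22, -0.25 and -0.21 in the same order. Chromosome 13 (475 genes) had medians of 0.31, 0.18, 0.25 and 0.16, and chromosome 19 (431 genes) had 0.20, 0.20, 0.10 and 0.23. Chromosome 12 (455 genes), where the settings were less alike, had 0.16, 0.05, 0.05 and 0.02, and chromosome 16 (372 genes) had 0.15, 0.04, 0.04 and 0.02. Which genes stand behind these medians was not tested.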
